A study of Mus musculus with 6 samples.

Results

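The respiratory chain genes of the embryonic lower jaw were taken as all rows whose symbol begins with mt-Nd, mt-Co, mt-Atp, mt-Cytb, Nduf, Uqcr, Atp5 or Cox4 to Cox8, or is Sdha, Sdhb, Sdhc or Sdhd. This naming rule found 108 of the 21827 listed genes, of which 13 are encoded in mitochondrial DNA and 95 in the nucleus. The 13 mitochondrial genes give 7 subunits of complex I, 1 of complex III, 3 of complex IV and 2 of complex V. Of the 95 nuclear rows, 36 belong to complex I, 4 to complex II, 8 to complex III, 20 to complex IV and 18 to complex V, 8 are assembly factors of complex I and 1 is the pseudogene Cox5b-ps. Ndufa4 and Ndufa4l2 were counted with complex IV, of which NDUFA4 is now known to be a subunit. Atp5o stands on 2 of the complex V rows, and its second row was listed at 0 TPM in every library.

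Polyadenylated RNA was sequenced from the distal mandible, the tip of the lower jaw, of mouse embryos at E10.75 (a day of embryonic development). By genotype, the 3 mutant-labelled libraries come from Msx1f/f embryos and the 3 control-labelled libraries from Msx1f/+ embryos, with 1 embryo of each label from each of 3 litters. All 6 embryos are also Msx2f/f, carry Hand2-Cre, a Cre recombinase driven by Hand2 regulatory sequence, and are Rosa26mTmG/+, a reporter of Cre action. The labels thus differ at Msx1 alone, and no library comes from an embryo with intact Msx genes. The tissue was dissected by reporter fluorescence and no sorting of cells is described, so cells in which Hand2-Cre had not acted may be included. In such bulk samples, fewer cells of a type and less RNA per cell cannot be told apart. The values are in TPM, a transcript abundance corrected for transcript length and scaled to a fixed total per library. The listed genes summed to between 716208 and 735601 TPM per library, and the sequencing depth behind them is unknown.

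Respiratory chain complexes I to IV sit in the inner mitochondrial membrane, pass electrons from NADH and succinate to oxygen and, in complexes I, III and IV, pump protons. Complex V, the ATP synthase, uses the resulting gradient to make ATP. Complex II is built from nuclear genes alone, whereas the other complexes combine nuclear subunits with subunits made inside the mitochondrion. The mitochondrial genome is transcribed as long precursors from both strands, which are cut at the transfer RNAs between genes, and most of the mature messengers receive short poly(A) tails. Every mitochondrial subunit gene except mt-Nd6 lies on the same strand. Insertions of mitochondrial DNA into nuclear chromosomes can carry near-identical copies of these genes. Embryonic tissues at midgestation are known for strong glycolysis, with respiration growing as organs mature.

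Several mitochondrial genes shared nearly all of their sequence with such a nuclear insertion on chromosome 1, which bears on how far their TPM can be read. In the GRCm38 transcripts of GENCODE M21, 753 of the 754 stretches of 31 bases in mt-Co3 occurred in the pseudogene Gm28437 (chr1:24613189-24613971, minus strand). The shared bases aligned without a difference over 783 bases, and mt-Co3 has 1 base more. The last bases of both are shown, with the extra base of mt-Co3 in capitals (mt-Co3 at chrM:9330-9390, plus strand, and Gm28437 at chr1:24613189-24613248, minus strand).
mt-Co3: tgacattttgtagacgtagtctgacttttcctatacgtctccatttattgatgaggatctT
Gm28437: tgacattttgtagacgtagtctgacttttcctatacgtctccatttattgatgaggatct
The same insertion holds copies of mt-Co2 (Gm28661, 0 differences over 681 bases), mt-Atp6 (Gm10925, 0 over 678), mt-Nd4l (Gm10222, 0 over 294) and mt-Nd3 (Gm28438, 1 over 345). The difference in mt-Nd3 is T3C, counted from 1 at its first base, with the mt-Nd3 base written before the position and the base of the copy after it. It is in capitals in the first bases of both (mt-Nd3 at chrM:9459-9498, plus strand, and Gm28438 at chr1:24613080-24613119, minus strand).
mt-Nd3: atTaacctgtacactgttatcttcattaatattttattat
Gm28438: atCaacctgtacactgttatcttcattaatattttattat
Copies of part of mt-Nd4 (846 of 1348 stretches of 31 bases shared with Gm28439) and of mt-Co1 (685 of 1515 with Gm13340 on chromosome 2) also stand in the annotation, whereas mt-Nd1 shared none with another gene. No values of Gm28437 or the other 4 copies on chromosome 1 were used here, and whether the copies were in the transcript set that the authors quantified is not given in the sources used here. Reads that lie within the identical stretches cannot be told apart by sequence, so the values of mt-Co3, mt-Atp6, mt-Co2, mt-Nd3 and mt-Nd4l are uncertain by this measure. In part this also holds for mt-Nd4 and for mt-Co1, which shared 968 of its 1515 stretches with other annotated genes in all.

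Neighbouring mitochondrial genes also overlap. The genes mt-Atp8 and mt-Atp6, both ATP synthase subunits, share 43 bases and are carried on 1 messenger that also borders mt-Co3. The overlap is shown with the shared bases in capitals (chrM:7907-7989, plus strand), followed by the junction of mt-Atp6 and mt-Co3, which share 1 base (chrM:8587-8627, plus strand).
mt-Atp8 and mt-Atp6: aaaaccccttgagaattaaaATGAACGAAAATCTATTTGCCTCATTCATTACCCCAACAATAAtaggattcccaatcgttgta
mt-Atp6 and mt-Co3: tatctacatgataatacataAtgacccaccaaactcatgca
The pair mt-Nd4l and mt-Nd4 share 7 bases, and mt-Nd5 and mt-Nd6, which lie on opposite strands, share 14.

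Msx1, the floxed homeobox gene that distinguishes the labels, went against them in litters 2 and 3. It stood at 1.90 TPM in the mutant-labelled library and 84.1 in the control-labelled library of litter 1. In litter 2 the values were 78.8 TPM in the mutant-labelled library and 2.61 in the control-labelled library, and in litter 3 they were 73.3 and 1.99. Each litter therefore holds 1 library with Msx1 under 10 TPM, called the low-Msx1 library here, and a littermate over 50 TPM. Differences within litters are given as log2(TPM + 1) of the low-Msx1 library minus that of its littermate. Since a measured gene sets this order, they are a description without a test. In the authors' deposited table, Msx1 had a log2 fold change of -5.19 ± 0.26 (SE). Each label held Msx1 both under 10 and over 50 TPM, so the labelled groups cannot give a fall of that size. The groups of that table thus appear to follow Msx1 and to differ from the labels in litters 2 and 3. Its values and the within-litter differences then rest on the same order of libraries, and the labelled comparison on another. Summed markers of jaw mesenchyme held 0.126% to 0.139% of listed TPM and those of epithelium 0.012% to 0.014%. Muscle, neuron, glia, endothelium and macrophage markers held at most 0.012% each. Embryonic red blood cell markers varied most, at 3.07% in the mutant-labelled library of litter 1 and 0.962% to 1.32% in the others. Their part in the results below was not tested.

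The mitochondrially encoded genes were among the most abundant of all listed transcripts and spanned a wide range of levels. The highest was mt-Atp8 (chrM, 7766 to 7969), which encodes a small subunit of the ATP synthase membrane part. It ranged from 17487 TPM in the lowest library over a median of 18345 to 23912 in the highest and ranked 2 among all listed genes by mean TPM. The catalytic core subunits of complex IV followed, mt-Co2 (chrM, 7013 to 7696) with a median of 5658 TPM (4518 to 6007) and mt-Co1 (chrM, 5328 to 6872) with 5128 TPM (4342 to 6171). These ranges overlap, so their order does not hold in every library. The complex I subunit mt-Nd1 had a median of 3289 TPM (2858 to 3965), mt-Cytb, the mitochondrial subunit of complex III, 3159 TPM (2797 to 4260), and mt-Nd4l 2880 TPM (2639 to 4001), and these also overlapped. Lower complex I subunits were mt-Nd3 at a median of 2080 TPM (1702 to 2213), mt-Nd4 at 1743 (1618 to 2230) and mt-Nd5 at 1573 (1376 to 2041). At the lower end stood mt-Nd2 at 1000.5 TPM (887 to 1392), mt-Atp6 at 812 (677 to 1001) and mt-Nd6, the gene on the opposite strand, at 664 (520 to 855). The third core subunit of complex IV, mt-Co3 (chrM, 8607 to 9390), was lowest at a median of 308 TPM (258 to 530) and overlapped in range with mt-Nd6 alone. By mean TPM it ranked 261, far below mt-Co1 (rank 6) and mt-Co2 (rank 5). The places of mt-Co3, mt-Co2, mt-Atp6, mt-Nd3 and mt-Nd4l in this order are uncertain, given the near-identical copies described above. In part this also holds for mt-Co1 and mt-Nd4.

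The levels of adjacent genes on shared messengers were unlike each other. The TPM of mt-Atp8 exceeded that of mt-Atp6 in every library, with no overlap, although both lie on 1 messenger. TPM divide by length, and mt-Atp8 has 204 bases against 681 in mt-Atp6. In the authors' deposited table, the base mean, a mean of normalised counts, was also higher for mt-Atp8, at 13320 against 5947. Of their stretches of 31 bases, mt-Atp8 shared 7.5% and mt-Atp6 99.5% with other annotated genes. The part of length or of shared sequence in this gap was not tested. Divided by the mean TPM, the base mean was 0.692 for mt-Atp8, 7.12 for mt-Atp6, 7.33 for mt-Co2 and 18.4 for mt-Co1. A unit of TPM thus stood for far fewer counts in mt-Atp8 than in the longer genes, and its rank describes TPM and not reads.

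**Figure D1:**
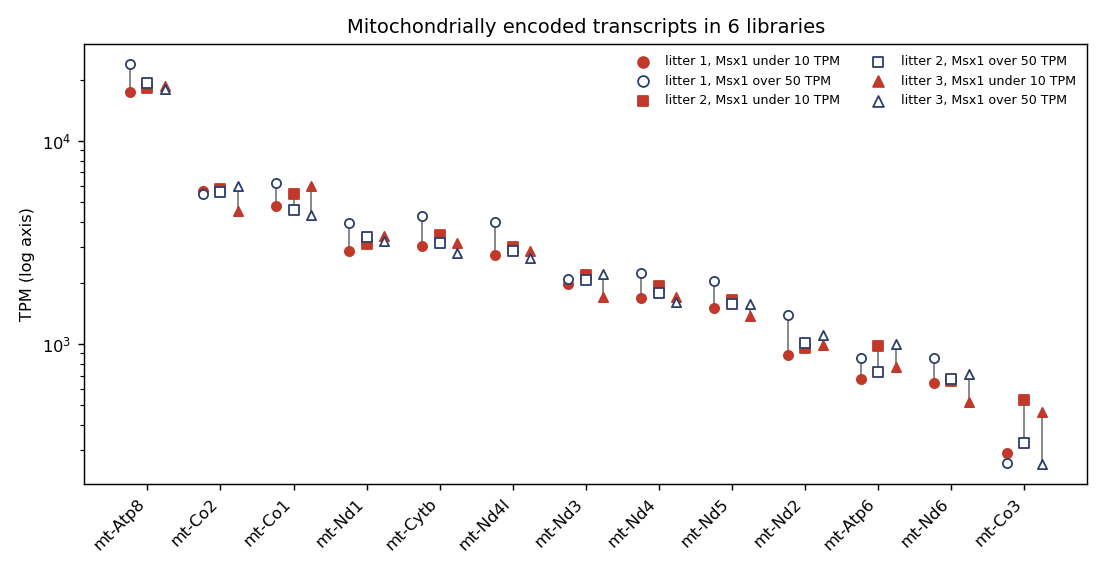
TPM (vertical axis, log scale) of the 13 mitochondrially encoded genes (horizontal axis) in the 6 libraries, where the marker shape gives the litter, filled red marks the library with Msx1 under 10 TPM, open blue its littermate over 50 TPM, and a line joins the littermates. Levels fall from mt-Atp8 (17487 to 23912 TPM) to mt-Co3 (258 to 530 TPM), and mt-Co3 is the gene whose filled marker lies above the open one in all 3 litters.

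The mt-Co3 transcript varied between libraries more than any other mitochondrial gene, with a coefficient of variation of 32.4% against a median of 14.7% over the 13. In litter 1 it stood at 290 TPM in the mutant-labelled library and 260 in the control-labelled library. Litter 2 gave 327 and 530 TPM, and litter 3 gave 258 and 465 TPM, in the same order of labels. The low-Msx1 library was the higher of its litter each time, by 0.16, 0.70 and 0.85 on the log2(TPM + 1) scale in litters 1, 2 and 3. Of all 12152 tested genes, 10.81% were likewise higher in all 3 litters. The low-Msx1 library of litter 1, at 290 TPM, lay below the high-Msx1 library of litter 2, at 327. By label the groups overlapped, and the difference of mutant minus control was -0.46 ± 0.24 (SE) with a limma adjusted p of 0.729 over all genes. It was -0.77 without the control-labelled library of litter 1 and -0.26 without that of litter 2. The mt-Co3 log2 fold change in the authors' deposited table was 0.57 ± 0.13 (SE), with an adjusted p of 0.0101 and a base mean of 3238. The direction of that table is not stated, and its positive sign is that of genes higher where Msx1 was low. Of its 14572 genes with an adjusted p, 14 passed 0.05, which is 0.0961%, and mt-Co3 was the only respiratory chain gene among them.

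Set against the 12 other mitochondrial genes, mt-Co3 held 0.660 TPM per 100 TPM in the mutant-labelled library and 0.454 in the control-labelled library of litter 1. Litter 2 gave 0.700 and 1.12, and litter 3 gave 0.570 and 1.02. The labelled groups overlapped. The log2 ratio of mt-Co3 to the others differed by -0.33 between labels (mutant minus control), with an exact two-sided permutation p of 0.4, where 3 against 3 libraries cannot go below 0.1. This value was -0.09 without the control-labelled library of litter 2, -0.15 without that of litter 3 and -0.74 without that of litter 1. Within litters the low-Msx1 library was higher in this ratio by 0.54, 0.68 and 0.84. Relative to summed nuclear members the differences were -0.04, 0.65 and 1.02, so litter 1 showed the difference against the other mitochondrial genes and not against the nuclear ones. For the other genes with a near-complete copy on chromosome 1, the low-Msx1 library was not the higher in every litter. On the log2(TPM + 1) scale, mt-Atp6 differed by -0.33, 0.43 and -0.37 and mt-Co2 by 0.05, 0.04 and -0.41. The complex I genes mt-Nd3 and mt-Nd4l differed by -0.09, 0.09 and -0.38 and by -0.55, 0.06 and 0.12. For mt-Co2 the authors' deposited table gave -0.10 ± 0.12 (SE). The part of Gm28437 in the mt-Co3 values was not tested.

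Of the other mitochondrial genes, none passed the adjusted threshold in either comparison. The authors' deposited table gave 11 of the 13 a negative sign, that of genes lower where Msx1 was low, with a median log2 fold change over the 13 of -0.12. Across its genes with an adjusted p, 49.3% were negative and the median was 0.003. The 13 genes share a genome and are not independent. Within litters 1, 2 and 3, their median differences in TPM were -0.41, 0.07 and 0.04, with 2, 9 and 7 of the 13 higher in the low-Msx1 library. In TPM most were thus lower in litter 1 alone. At an unadjusted p under 0.05, the authors' table held mt-Nd2 (-0.29 ± 0.11, SE, unadjusted p = 0.00776) and mt-Nd6 (-0.30 ± 0.13, unadjusted p = 0.0162) on the negative side, where 0.971% of its 17605 genes with a p stood, and mt-Co3 on the positive side, where 0.875% stood. The complex I subunit gene mt-Nd2 was lower in the low-Msx1 library of each litter, by 0.65, 0.08 and 0.15 in size, as was mt-Nd6, by 0.41, 0.04 and 0.46, and the differences in litter 2 were small for both. Lower in all 3 litters were thus 2 of the 13, and higher was 1, mt-Co3. Beside these stood 11.87% and 10.81% of all 12152 tested genes, so both counts lay near the background. Levels of mt-Nd2 were 887, 1009 and 1104 TPM in the mutant-labelled libraries of litters 1, 2 and 3, and 1392, 957 and 992 TPM in the control-labelled ones. For mt-Nd6 the levels were 643, 673 and 714 TPM, and 855, 654 and 520 TPM. In both genes the control-labelled library of litter 1 was highest, and the labelled groups overlapped.

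By label, 3 of the 13 mitochondrial genes had a positive and 10 a negative difference of mutant minus control, with a median of -0.14. Over all 12152 tested genes 34.6% were positive and the median was -0.06. The positive number and the median were 5 and -0.06 without the control-labelled library of litter 1, and 1 and -0.21 without that of litter 3. Without the mutant-labelled library of litter 1 the number was 3 and the median -0.08, without that of litter 3 the number was 2, and median-of-ratios scaling gave a median of -0.07. The complex IV core subunit mt-Co1 was at 4757, 4574 and 4342 TPM in the mutant-labelled libraries of litters 1, 2 and 3. In those labelled control it was at 6171, 5499 and 5966 TPM, so the groups did not overlap. Its difference was -0.37 ± 0.08 (SE), with an unadjusted limma p of 0.00174 and an adjusted p of 0.669. Its log2 fold change in the authors' deposited table was 0.12 ± 0.12 (SE). Most of the mt-Co1 sequence is shared with other annotated genes, as given above, which limits how far its values can be read. For mt-Cytb the difference was -0.26 ± 0.12 (SE, limma adjusted p = 0.726), and -0.14 without the control-labelled library of litter 1. Its groups met without overlapping, with 3158 TPM in the highest mutant-labelled and 3159 in the lowest control-labelled library. Labelled groups without overlap were thus seen for 2 of 13, both lower in the mutant-labelled libraries, beside 10.4% of all tested genes in that direction.

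**Figure D2:**
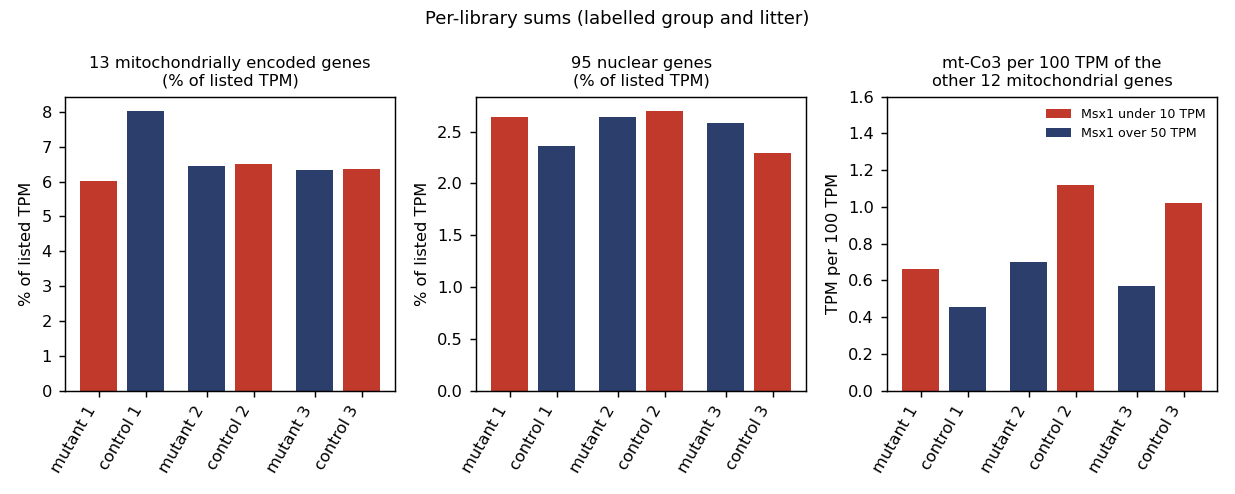
Bars give, for each of the 6 libraries by label and litter, the percent of listed TPM in the 13 mitochondrially encoded genes (left), the same in the 95 nuclear genes (middle) and the mt-Co3 TPM per 100 TPM of the other 12 mitochondrial genes (right), with red for Msx1 under 10 TPM and blue for over 50 TPM. The control-labelled library of litter 1 stands at 8.03% mitochondrial TPM and the other 5 between 6.02% and 6.51%, and the mt-Co3 bars are highest in the control-labelled libraries of litters 2 (1.12) and 3 (1.02).

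Summed, the 13 mitochondrial genes held more TPM than the 95 nuclear ones in every library. In litter 1, mt-Atp8 alone gave 17487 of 44233 mitochondrial TPM in the mutant-labelled library and 23912 of 57536 in the control-labelled one. The share and the ratio below were not taken without mt-Atp8. The mitochondrial share of listed TPM was 6.02%, 6.45% and 6.33% in the mutant-labelled libraries of litters 1, 2 and 3 and 8.03%, 6.51% and 6.36% in those labelled control. The means were 6.26% ± 0.22 (SD, n = 3) and 6.97% ± 0.93 (SD, n = 3), an exact two-sided permutation p of 0.2. The difference of -0.70 percentage points became -0.17 without the control-labelled library of litter 1. In litters 1 and 3 the lower mitochondrial share stood in the library with the higher red blood cell share (3.07% and 1.22%). In litter 2 the higher mitochondrial share did (1.32%). This relation was not tested. The nuclear share was 2.64%, 2.65% and 2.59% in the mutant-labelled libraries and 2.36%, 2.70% and 2.29% in those labelled control, with overlapping groups (exact two-sided permutation p = 0.4).

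The ratio of mitochondrial to nuclear TPM was 2.28, 2.44 and 2.45 in the mutant-labelled libraries and 3.41, 2.41 and 2.78 in those labelled control. The mean was 2.39 ± 0.09 (SD, n = 3) against 2.86 ± 0.50 (SD, n = 3). The log2 ratio differed by -0.25, which did not pass the exact two-sided permutation test (p = 0.3). Without the control-labelled library of litter 1 it was -0.12, and it lay between -0.37 and -0.12 whichever library was left out. With structural nuclear subunits only it was -0.25, and without mt-Co3 -0.24. Taken from medians of log2 values in place of sums it was 0.014. Its direction thus depended on whether sums or medians were used. In litter 1 the low-Msx1 library had the lowest ratio of all 6 and its littermate the highest.

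Among the nuclear genes, 51 of 95 rows reached a mean of 100 TPM, 71 reached 50 and 86 reached 10. Nuclear genes of complex V had the highest summed level, 6168 to 7451 TPM per library, followed by complex IV at 4553 to 5514, complex I at 3686 to 4468, complex III at 1409 to 1811 and complex II at 348 to 410 TPM. The complexes kept this order within each library. In complex I, the accessory subunit gene Ndufa11 had the highest mean level, at 283, 264 and 277 TPM in the mutant-labelled libraries of litters 1, 2 and 3 and 173, 252 and 215 in those labelled control. Ndufa12 stood at 197 to 250 TPM and Ndufs6 at 174 to 263. The complex II genes encode succinate dehydrogenase, which also works in the tricarboxylic acid cycle. Its catalytic flavoprotein gene Sdha had the lowest mean level of the 4, at 63.0 to 72.6 TPM. It did not overlap with Sdhb, the iron-sulfur subunit gene, at 95.1 to 118 TPM, or with the membrane anchor gene Sdhd at 93.3 to 119. The other anchor gene, Sdhc, at 71.9 to 102 TPM, overlapped with all 3. In complex III, Uqcr10 (410 to 576 TPM), Uqcr11 (226 to 386) and Uqcrh (267 to 391), which encode small subunits, had the highest mean TPM. Uqcrq, another small subunit gene, lay above both Uqcr11 and Uqcrh in 1 library at 359 TPM, so the order of these 3 does not hold in every library.

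Complex IV held the most abundant nuclear member, Cox7c, with 1167, 1145 and 1069 TPM in the mutant-labelled libraries and 944, 1223 and 1034 in those labelled control. Cox6a1 followed at 583 to 823 TPM and Cox8a at 530 to 611, ranges that overlap with each other. In complex V the c-ring subunit gene Atp5g1 stood at 620 to 764 TPM and the epsilon subunit gene Atp5e at 476 to 680. The catalytic beta subunit gene Atp5b stood at 504 to 569 TPM and overlapped with Atp5e, and the alpha subunit gene Atp5a1 stood at 395 to 445. Of the assembly factors, Ndufaf2 was highest, at 94.2 to 119 TPM. Median variation between libraries was 10.6% over the 71 nuclear genes with a mean of at least 50 TPM, beside 8.84% over all 1945 genes of that level.

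Where a subunit has tissue-specific isoforms, the widely expressed isoform dominated and the heart, muscle or testis isoform was low, apart from Cox6b2. Cox4i1 ranged from 488 to 655 TPM and its alternative Cox4i2, known from lung and from low oxygen, from 3.70 to 7.89 TPM. Cox6a1 stood beside Cox6a2, the heart and muscle isoform, which was at 0.29 TPM in 1 library and listed at 0 in the others. Cox8a stood beside Cox8b, at 0.59 and 0.62 TPM in 2 libraries and listed at 0 elsewhere, and Cox8c, listed at 0 in all. Cox7a2 was at 217 to 319 TPM, the related Cox7a2l, which acts in supercomplex formation, at 153 to 194, and the muscle isoform Cox7a1 at 0.41 to 3.85 TPM. Cox7b ranged from 68.8 to 80.7 TPM, with Cox7b2 at 0.26 in 1 library and listed at 0 in the others. Ndufa4 was at 343 to 428 TPM and Ndufa4l2, a gene induced by low oxygen in many cells, at no more than 0.50. Cox6b2, known as the testis isoform, stood at 25.6 to 54.8 TPM beside 335 to 436 for Cox6b1. The 3 genes for the identical mature c-ring subunit were all expressed, Atp5g1 at 620 to 764 TPM, Atp5g2 at 353 to 671 and Atp5g3 at 386 to 481.

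By label, no respiratory chain gene passed limma's adjusted threshold of 0.05, and neither did any of the 12152 tested genes (0%). Tested were 102 of the 108 rows, all 13 mitochondrial and 89 nuclear. The rows that missed the filter were Cox6a2, Cox7b2, Cox8b, Cox8c, Ndufa4l2 and the second row of Atp5o. Among the 89 nuclear genes 60 differences were positive (higher in mutant-labelled libraries) and 29 negative, with a median of 0.08, where 34.6% of all tested genes were positive. Rescaling libraries by the median of gene ratios made 74 of the 89 positive, beside 50.5% of all genes, and moved the median of all genes from -0.06 to 0.002. At an unadjusted p under 0.05, 9 of the 89 were higher and 1 was lower, beside 1.9% and 4.82% of all tested genes. The labelled groups did not overlap for 9 that were higher and 3 that were lower, beside 2.73% and 10.4%. In both counts 8 of the 9 higher genes have transcripts under 1000 bases. Of 743 other tested genes under 1000 bases, 60.4% were positive. At that unadjusted p 66 of the 743 were higher and 28 lower, and without overlap 63 were higher and 27 lower.

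The largest positive differences were those of small or alternative subunits. Cox6b2 was at 54.8, 35.4 and 39.5 TPM in the mutant-labelled libraries and 25.6, 32.7 and 28.3 in those labelled control, without overlap. Its difference was 0.55 ± 0.17 (SE, limma adjusted p = 0.686), and it was 0.37 without the mutant-labelled library of litter 1. Atp5e was at 675, 680 and 677 TPM in the mutant-labelled libraries and 476, 573 and 502 in those labelled control, a difference of 0.39 ± 0.09 (SE, limma adjusted p = 0.669) without overlap, while its value in the authors' deposited table was -0.06 ± 0.19 (SE). Ndufa11, given above, differed by 0.38 ± 0.13 (SE, limma adjusted p = 0.686), and by 0.24 without the control-labelled library of litter 1. Ndufa3, an accessory subunit gene, was at 26.3, 29.2 and 31.2 against 21.8, 25.8 and 19.9 TPM, differing by 0.35 ± 0.12 (SE, limma adjusted p = 0.686).

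The largest negative difference was that of Ndufs7, which encodes the complex I core subunit that carries an iron-sulfur cluster near the quinone site. It stood at 84.7, 69.0 and 89.2 TPM in the mutant-labelled libraries and 119, 135 and 103 in those labelled control. The groups did not overlap, and the difference was -0.55 ± 0.13 (SE) with an unadjusted limma p of 0.00314 and an adjusted p of 0.669. For Ndufs7 the authors' deposited table gave 0.22 ± 0.26 (SE). The 3 tested genes of the mitochondrial and nuclear sets with the next largest negative differences were mt-Co3, mt-Co1 and mt-Cytb, described above.

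By complex, 25 of 36 nuclear complex I genes had a positive label difference (median 0.08), as did 3 of 4 in complex II (0.05), 5 of 8 in complex III (0.15), 13 of 15 tested in complex IV (0.14) and 12 of 17 in complex V (0.08). Of the complex I assembly factors 2 of 8 were positive, with a median of -0.10. Over all tested genes 34.6% were positive and the median was -0.06, so the assembly factors lay near the background. None of these groups held a gene past the adjusted threshold, and whether they differ from each other was not tested.

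In the authors' deposited table, 0 of the 89 nuclear genes tested here passed the adjusted p of 0.05, and 0 had an unadjusted p under 0.05. The sign was positive for 56 and negative for 33, with a median log2 fold change of 0.037, beside 50.7% positive over all genes with an adjusted p. Complex I gave 26 positive of 36 with a median of 0.045, complex II 3 of 4, complex III 5 of 8, complex IV 9 of 15, complex V 9 of 17 and the assembly factors 4 of 8. Among nuclear genes the smallest p in the authors' deposited table belonged to the small complex I subunit gene Ndufc1 (0.48 ± 0.27, SE, unadjusted p = 0.0765). Uqcrh followed at 0.24 ± 0.16 (unadjusted p = 0.136) and the assembly factor gene Ndufaf4 at -0.43 ± 0.31 (unadjusted p = 0.172). Cox5a, a structural subunit gene of complex IV, Ndufc2 and Uqcrc2, a core protein gene of complex III, lay between 0.17 and 0.19 in the authors' deposited table with unadjusted p of 0.195, 0.227 and 0.241.

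**Figure D3:**
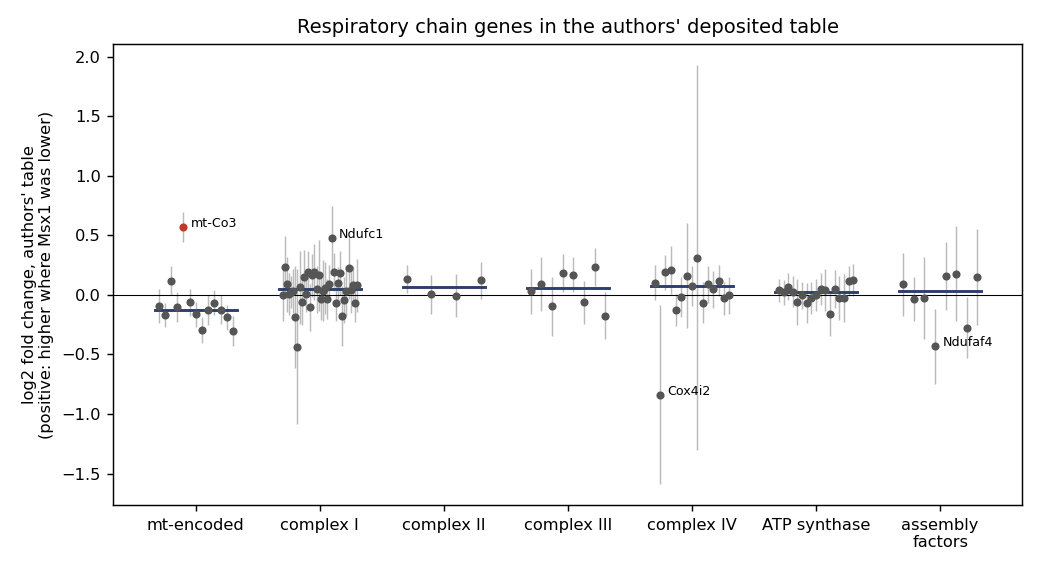
Log2 fold change of each tested respiratory chain gene except Cox5b-ps in the authors' deposited table (vertical axis, points, with vertical lines of 1 standard error to each side), for the mitochondrially encoded genes and for the nuclear genes by complex (horizontal axis), with blue bars at group medians. The mitochondrial genes lie below 0 apart from mt-Co3 (red, 0.57) and mt-Co1 (0.12), and Cox4i2 at -0.84 has a wide error.

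Within litters, 13 of the 89 nuclear genes were higher and 4 lower in the low-Msx1 library of all 3 litters, beside 10.81% and 11.87% of all 12152 genes. Among those higher were the complex I genes Ndufab1, Ndufb11, Ndufc1, Ndufc2, Ndufs3 and Ndufv1, Sdha of complex II, Cox5a and Cox5b of complex IV, and Atp5c1, Atp5o and Atp5pb of complex V. For some of these the shared sign rests on a near tie. Cox5a differed by 0.0002 in litter 3, and Ndufb11 by 0.003 and Cox5b by 0.02 in litter 2. Those lower were Cox4i2, the assembly factor genes Ndufaf4 and Ndufaf7, and Cox5b-ps. For Ndufc1 the low-Msx1 library was at 70.0, 60.6 and 63.3 TPM and its littermate at 40.9, 43.5 and 56.0, differences of 0.76, 0.47 and 0.17. Cox4i2 was at 3.70, 3.74 and 4.96 TPM in the low-Msx1 libraries and 7.58, 6.60 and 7.89 in their littermates, differences of -0.87, -0.68 and -0.58. Cox4i2 in the authors' deposited table was at -0.84 ± 0.75 (SE, unadjusted p = 0.263). Its difference by label was 0.13 ± 0.29 (SE, limma adjusted p = 0.929). The pseudogene Cox5b-ps, at 0.70 to 8.24 TPM, shared 74.4% of its stretches of 31 bases with other genes, mostly Cox5b, and its value is uncertain for that reason. Of the genes listed above, Ndufs3 (55.0%) and Atp5o (59.5%) also shared most of their stretches with other annotated genes, as did Uqcrb (58.2%) and Atp5l (85.4%).

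Most nuclear genes differed in the same direction in litter 1, and most in the opposite direction in litter 3. The low-Msx1 library was higher for 70 of 89 in litter 1, 51 in litter 2 and 31 in litter 3, with median differences of 0.16, 0.03 and -0.13. Over all tested genes the medians were -0.09, 0.01 and 0.08. For the 13 mitochondrial genes they were -0.41, 0.07 and 0.04, with 2, 9 and 7 genes higher. Litters 1 and 3 thus had nuclear medians of opposite sign, a difference that was not tested. In both of these litters the mutant-labelled library had the higher nuclear median, although it is the low-Msx1 library in litter 1 and its littermate in litter 3.

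Transcript length moved with this pattern. Of the 89 tested nuclear genes, 50 have a principal transcript under 1000 bases in GENCODE M21 and 39 a longer one. The shorter genes had within-litter medians of 0.26, 0.01 and -0.19, with 42, 26 and 11 of 50 higher in the low-Msx1 library. The longer ones had 0.08, 0.06 and 0.00, with 28, 25 and 20 of 39 higher. Other genes under 1000 bases, 743 in number, had medians of 0.13, 0.01 and -0.06 in the same litters, and the 11278 longer ones -0.10, 0.01 and 0.09. By label, 37 of the 50 shorter nuclear genes and 23 of the 39 longer ones were positive, with medians of 0.11 and 0.01. Among the other genes, 60.4% of the shorter and 32.6% of the longer ones were positive by label, with medians of 0.06 and -0.07. Across the 89 nuclear genes, which are not independent replicates and share their libraries, the label difference and log2 length had a Pearson r of -0.33. In the authors' deposited table the medians of the shorter and longer nuclear genes were 0.034 and 0.043. The part of length in the label differences was not tested further.

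**Figure D4:**
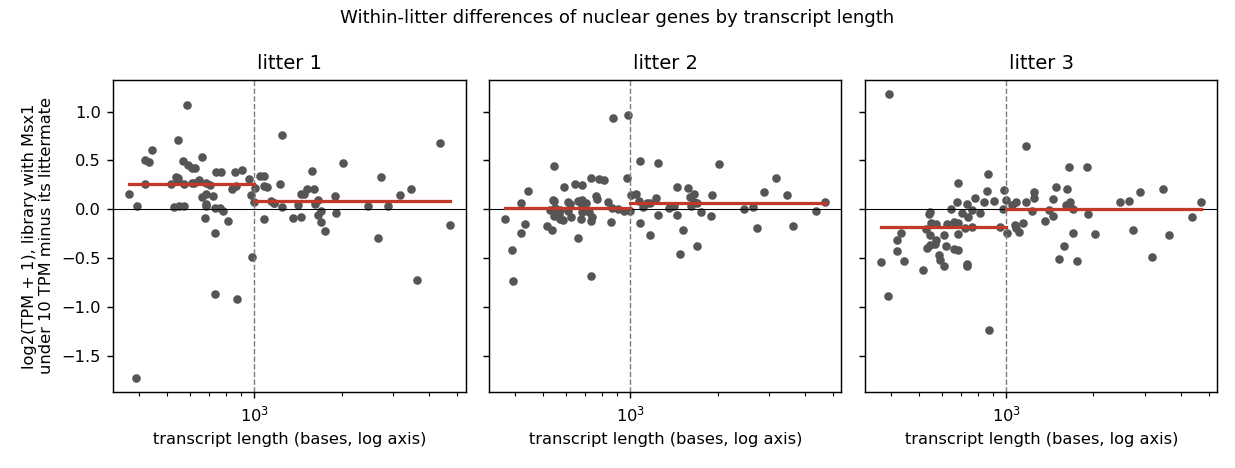
Difference in log2(TPM + 1) between the low-Msx1 library and its littermate (vertical axis) against the principal transcript length in bases (horizontal axis, log scale) for the 89 tested nuclear genes, 1 panel per litter, with red lines at the medians of genes under 1000 bases and of longer ones. The median of the shorter genes lies at 0.26 in litter 1, 0.01 in litter 2 and -0.19 in litter 3.

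The nuclear genes are known to share binding sites for a few regulators near their start sites, above all NRF1, the ETS factor GABP and YY1. Of the 94 nuclear symbols, 76 were matched to RefSeq start sites on GRCm38.p6, in windows of 250 bases before to 50 after the start. A gene was counted when any of its windows held the letters. The letters CGCATGCG (an NRF1 core, which reads the same on both strands) occurred in 11 of the 76 genes (14.5%). This stood beside 2.07% of all 27025 genes with such windows and 4.46% of the 9655 tested ones. The letters CCGGAAG (GABP), on either strand, stood in 19 (25%) beside 9.93% and 20.3%, and AAGATGGC (YY1), likewise on either strand, in 11 (14.5%) beside 3.19% and 5.31%. At least 1 of the 3 was present in 34 genes (44.7%), beside 14.1% and 27.6%. A match says that the letters are present and not that a factor binds there. To show how they lie, the 250 bases before the start of Atp5j, a complex V stalk subunit gene, and of Cox6a1 are given from RefSeq with the motif letters in capitals (Atp5j at chr16:84834977-84835226 and Cox6a1 at chr5:115348959-115349208, both minus strand). In Atp5j the NRF1 letters begin at -147, the YY1 letters at -88 and the GABP letters at -61 from the start, and in Cox6a1 the NRF1 letters begin at -161 and the GABP letters, on the reverse strand, at -16.
Atp5j: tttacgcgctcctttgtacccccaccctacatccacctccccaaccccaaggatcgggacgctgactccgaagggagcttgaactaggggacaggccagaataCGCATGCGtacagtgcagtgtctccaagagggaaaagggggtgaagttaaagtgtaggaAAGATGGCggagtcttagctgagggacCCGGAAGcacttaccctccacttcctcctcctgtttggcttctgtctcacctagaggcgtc
Cox6a1: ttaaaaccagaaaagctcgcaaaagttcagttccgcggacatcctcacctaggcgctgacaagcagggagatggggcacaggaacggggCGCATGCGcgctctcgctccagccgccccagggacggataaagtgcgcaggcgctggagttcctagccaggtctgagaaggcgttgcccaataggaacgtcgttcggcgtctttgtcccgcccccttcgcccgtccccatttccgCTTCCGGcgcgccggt
No bases are shared between the motif matches in these stretches.

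The genes around the respiratory chain were described through 5 lists, and 0 of their genes passed the adjusted threshold in limma by label or in the authors' deposited table. In copying and expression of mitochondrial DNA, 9 of 26 tested genes were positive by label and 17 negative, with a median of -0.09, and 3 were lower at an unadjusted p under 0.05. Over all tested genes 34.6% were positive, and 1.9% were higher and 4.82% lower at that p. The authors' table gave 16 of 27 a positive sign, with a median of 0.009. The nuclear regulators of respiration genes had 4 of 9 positive by label (median -0.06), with 1 lower at an unadjusted p under 0.05. Assembly of complexes III and IV with cytochrome c had 10 of 25 positive (-0.02), with 0 at an unadjusted p under 0.05, and the tricarboxylic acid cycle had 7 of 20 positive (-0.06), with 3 lower at an unadjusted p under 0.05. Mitochondrial carriers and pores had 8 of 19 positive (-0.05), with 1 higher and 1 lower at that p. These medians lay near that of all tested genes (-0.06), and that of the nuclear members was 0.08. Beside it stood 0.15 after median-of-ratios scaling, 0.04 without the control-labelled library of litter 1, 0.05 without that of litter 3 and 0.13 without that of litter 2. By length, the median was 0.11 for nuclear members under 1000 bases and 0.01 for longer ones, beside 0.06 for other genes under 1000 bases. The lists were not matched to the nuclear members for length.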

How the data were processed

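Per the submitters' processing notes, the authors used Salmon 1.5.2, DESeq2 and the mm10 build. The settings, the transcript set and the version of the authors' DESeq2 are not given in these sources. The authors deposited 1 TPM value per gene for each of 6 libraries. TPM keep no record of depth, so precision was judged from the spread between embryos, which are separate animals, and no counting interval is given. Per the file headers, the authors' table holds a base mean (a signal, by its name the mean of normalised counts), a log2 fold change with its standard error, a Wald score and p-values. The authors' table does not state its direction. Msx1, at -5.19 there, served to read it, and the groups of that table appear to follow Msx1 and not the labels.

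The labelled groups were compared with limma 3.58.1 in R 4.3.3, with robust moderation and a trended variance, on log2(TPM + 1). The fit covered the 12152 genes that reached 1 TPM in 3 or more libraries. Benjamini-Hochberg adjustment ran over all of them, with 0.05 as the threshold. Fold changes on this scale understate those of low genes. Summed values were compared by exact two-sided permutation of the labels (scipy 1.17.1). The limma step was tested on simulated data. Labels pair the libraries by litter; deviations of littermates from their label means correlated at -0.05, -0.03 and -0.03 in litters 1, 2 and 3 over 12152 genes. Alternatives were other scalings, pseudocounts and filters, a litter block and leaving out libraries or litters. Members and gene lists were chosen with earlier results of these data known. All 108 members matched GENCODE M21, from which lengths (APPRIS principal transcript) and shared stretches of 31 bases were taken. RefSeq start-site windows (GRCm38.p6) were matched by symbol.

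Genes named are all mitochondrial members and, in each nuclear complex and among assembly factors, the 3 with the highest mean TPM. Further named are the isoform groups, the 4 largest label differences in each direction, the 6 nuclear genes with the smallest p in the authors' table, and nuclear genes whose 3 litter differences share a sign and reach 0.2. Ndufaf7, the genes listed for a shared sign over litters, and Sdha, Atp5a1, Atp5j, Uqcrb, Uqcrq and Atp5l were named outside this rule after their values were seen.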

Additional observations from a re-analysis of the deposited data

How the results depend on the processing

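No respiratory chain gene passed limma's adjusted threshold under any alternative run, including the litter block (0 higher, 0 lower), other pseudocounts, filters and scalings, and leaving out each library. With litters as pairs, sign-flip tests, which cannot go below 0.25, gave exact p of 0.25 for the mitochondrial share, 0.5 for the mitochondrial to nuclear ratio and 0.5 for mt-Co3 against the other mitochondrial genes, and the block changed no call. The log2 mitochondrial to nuclear ratio turned from -0.25 to 0.014 with medians in place of sums. The number of mitochondrial genes with a positive label difference ranged from 1 to 5 when a library was left out. In the within-litter counts, 1 mitochondrial gene was higher in the low-Msx1 library of every litter, and 1 to 5 were when a litter was left out. Mitochondrial genes lower in every litter numbered 2, 4 after median-of-ratios scaling, and 2 to 5 when a litter was left out. Nuclear genes higher in every litter numbered 13, 8 after rescaling to genes not mitochondrially encoded, and 20 to 39 when a litter was left out. Nuclear genes lower numbered 4, 7 after that rescaling, and 7 to 27 when a litter was left out. With fewer litters a shared sign is met more easily. The number of positive nuclear genes ranged from 55 to 69 when a library was left out. Depth is unknown, the 3 embryos per label limit every test, and the conflict between Msx1 and the labels limits what the labelled comparison can be read for.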
